A study of Homo sapiens with 9 samples.

Results

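The transcription factor p53 stabilises when DNA is damaged or growth signals are out of balance, and switches on genes that stop the cell cycle, repair DNA or start apoptosis. A set of 33 such target genes was followed in HepG2, a hepatocellular carcinoma line that carries wild-type p53, on 9 oligonucleotide arrays. Knockdown1, knockdown2 and control had 3 arrays each. By the series' design text both knockdowns used small interfering RNA against HNF4alpha and HNF4gamma, nuclear receptors that drive hepatocyte genes; what sets knockdown1 apart from knockdown2, the siRNA sequences, the treatment time and what the control cells were given are not in the labels. Members were found by gene symbol: a probe set (a group of short probes against a transcript) had to be annotated to the member alone, and the brightest probe set past a filter on dim signals stood for the gene. Of the 33 genes, 30 had such a probe set, and 28 passed the filter, among 13056 genes tested in all. BTG2, BBC3 and FDXR were not analysed here. TNFRSF10C, a decoy receptor for the death ligand TRAIL, and PMAIP1, which encodes the apoptosis trigger NOXA, were annotated but dim, with signals of at most 12.3 and 8.10 on arrays whose common median was 14.1. Of the 28 tested members, 27 lay above the array median on 9 of 9 arrays, and EDA2R did so on 8, with arrays of all 3 groups among them. The members' place in the test thus did not hang on the group in which they were high.

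Values are linear MAS5 signals, scaled here so that every array has the same median, and differences are on the scale log2(signal + 1.41). A gene was called when limma's adjusted p lay under 0.05 over all 13056 genes. The labels name no separate cultures, so these p-values measure the spread between arrays, which may be technical, and 3 arrays a group limit the precision. Whole-cell RNA does not tell fewer expressing cells from less RNA per cell. HNF4G was lower in knockdown1 than in control (-1.28, SE 0.28, limma adjusted p = 5.38e-04) and gave -0.56 (SE 0.28, adjusted p = 0.141) in knockdown2; HNF4A was not analysed here. All 8 hepatocyte markers checked passed the filter, albumin at 1837 to 2345, and their summed signal was 26458 to 31947 in knockdown1, 29335 to 31524 in knockdown2 and 31933 to 38829 in control. Of the markers of other cells, 1 of 3 annotated leukocyte genes (CD14, at most 31.9), 3 of 4 fibroblast genes and 1 of 3 endothelial genes (PECAM1) passed it. The leukocyte sum was highest in control (31.3 to 49.1, against 11.1 to 20.2 in the knockdowns), the endothelial sum was lowest there (51.4 to 58.6, against 71.6 to 94.9) and the fibroblast sums overlapped, while the leukocyte genes PTPRC and CD3E reached at most 10.1 and 12.8, and the endothelial genes CDH5 and VWF below 10.1. The highest median of a deposited array was 1.28 times the lowest, and arrays of a group correlated at 0.973 to 0.978 over genes.

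Most of the p53 targets that moved were higher after HNF4 knockdown, and the 2 knockdowns raised partly different ones. In knockdown1, 13 of the 28 tested members rose, 3 fell and 12 did not pass; across all tested genes 14.3% rose and 19.0% fell, and 33.3% were called in either direction. In knockdown2, 12 rose, 0 fell and 16 did not pass, where 13.7% of all genes rose, 13.9% fell and 27.6% were called. Arrays of the 2 groups did not overlap for 17 and 13 members, against 39.8% and 39.7% of all tested genes. The members' median difference was 0.33 in knockdown1 and 0.17 in knockdown2, beside medians over all tested genes of -0.01 and 0.01. Both comparisons use the same 3 control arrays, so they are not independent. In the direct comparison of the knockdowns, 4 members were higher in knockdown1, 5 were lower and 19 did not pass. Across all genes 26.6% were called, 10.5% higher and 16.1% lower. With the common median the members' share called was thus near the background, a reading limited to that scaling. Arrays of the knockdowns did not overlap for 19 members, against 43.7% of all genes. On the values as deposited, without the common median, 10 members were higher and 6 lower in this comparison. Over all genes that scale moved the calls from 1368 higher and 2105 lower to 2803 and 2104, and for knockdown1 against control from 1866 and 2485 to 3105 and 2628, with similar splits after quantile normalization (2761 and 2158, and 3108 and 2682). In knockdown2 it gave 13 members higher and 3 lower, and the fit without control replicate 2 gave 11 and 3.

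**Figure D1:**
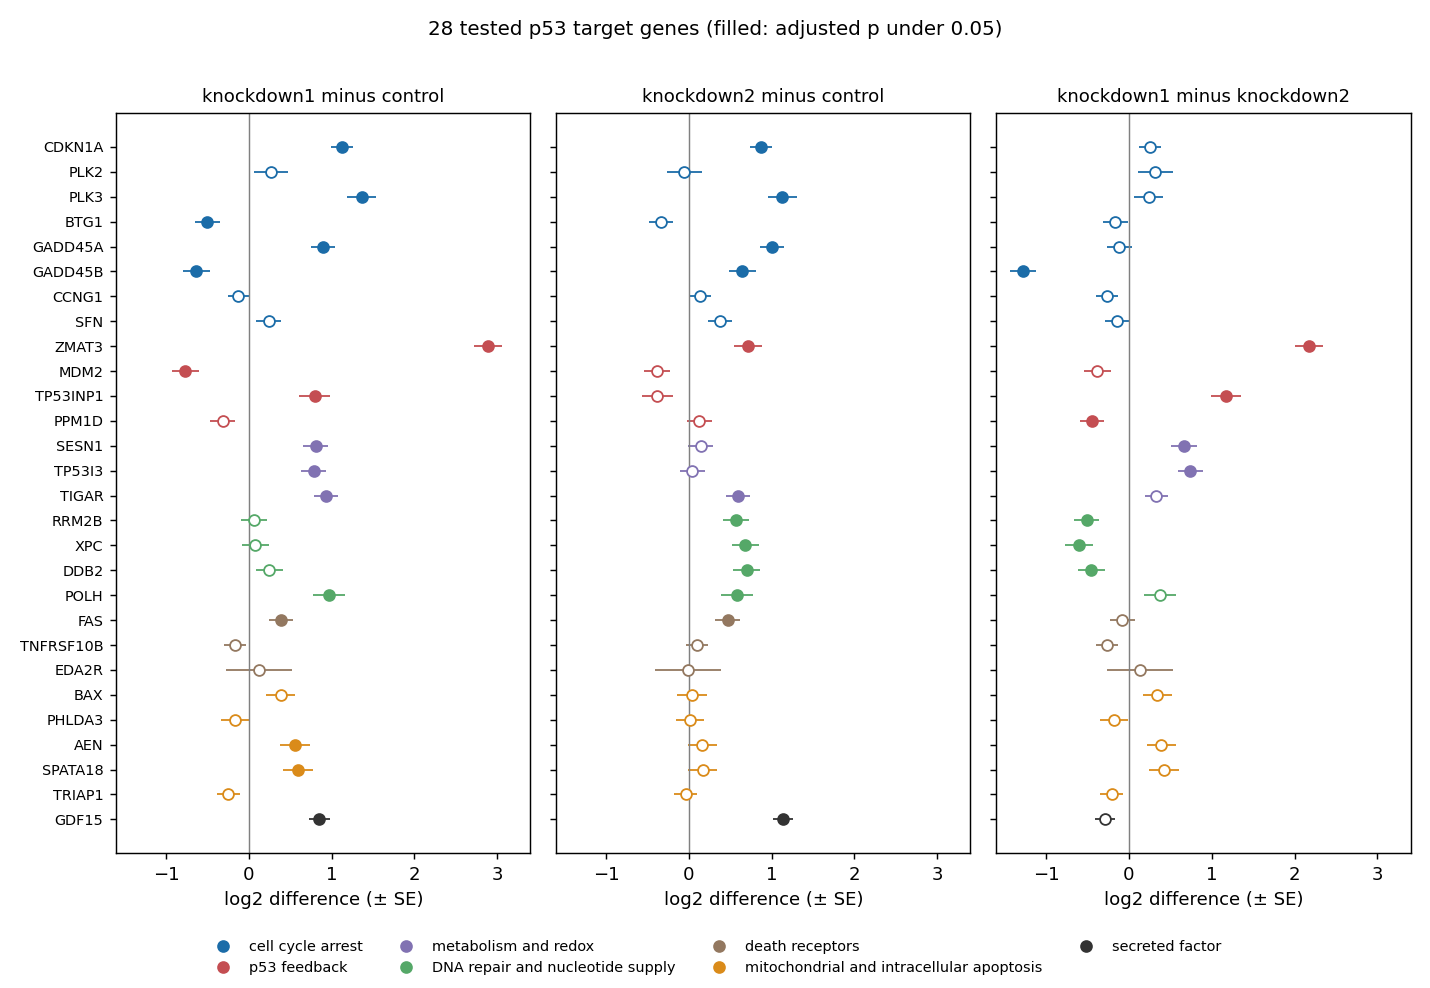
Log2 difference (x axis, ± SE) of each of the 28 tested p53 target genes (rows, coloured by role) in knockdown1 against control, knockdown2 against control and knockdown1 against knockdown2, with filled points for adjusted p under 0.05. ZMAT3 stands out in knockdown1 (2.89), GADD45B lies on opposite sides of 0 in the first and second panel (-0.63 and 0.65), and MDM2 lies left of 0 in every panel.

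The upstream stretches of 5 members are shown, because the genes beside them carry the main patterns below: CDKN1A and ZMAT3, which rose in both knockdowns, GDF15 and GADD45B, a pair with a TATA box of which the second went opposite ways in the 2 knockdowns, and AEN, whose stretch holds a p53 half-site and which rose in knockdown1. Each is the 250 bases before the transcription start in RefSeq, build GRCh38.p14, written 5′ to 3′ on the gene's strand. Capitals mark GC boxes (GGGCGG on either strand) in CDKN1A, at chr6:36678464-36678713 (+ strand), and ZMAT3, at chr3:179071810-179072059 (- strand). They mark the TATA box core (TATAAA) in GDF15, at chr19:18385908-18386157 (+ strand), and GADD45B, at chr19:2475877-2476126 (+ strand). In AEN, at chr15:88621090-88621339 (+ strand), they mark a match to the p53 half-site consensus.
CDKN1A: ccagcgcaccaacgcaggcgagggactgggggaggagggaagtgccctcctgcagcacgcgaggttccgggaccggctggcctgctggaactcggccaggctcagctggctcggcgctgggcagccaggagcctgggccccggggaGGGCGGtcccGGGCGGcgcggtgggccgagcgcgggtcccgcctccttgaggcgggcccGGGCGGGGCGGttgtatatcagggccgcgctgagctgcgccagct
ZMAT3: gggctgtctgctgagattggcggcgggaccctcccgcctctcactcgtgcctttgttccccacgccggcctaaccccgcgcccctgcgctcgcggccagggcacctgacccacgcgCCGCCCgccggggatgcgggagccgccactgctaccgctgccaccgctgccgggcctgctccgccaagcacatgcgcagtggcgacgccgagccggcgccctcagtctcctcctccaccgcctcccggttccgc
GDF15: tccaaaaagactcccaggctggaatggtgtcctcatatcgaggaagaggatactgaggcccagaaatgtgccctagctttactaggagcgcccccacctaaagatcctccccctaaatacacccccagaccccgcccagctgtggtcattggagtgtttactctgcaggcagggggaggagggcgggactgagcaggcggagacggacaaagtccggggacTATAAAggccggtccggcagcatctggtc
GADD45B: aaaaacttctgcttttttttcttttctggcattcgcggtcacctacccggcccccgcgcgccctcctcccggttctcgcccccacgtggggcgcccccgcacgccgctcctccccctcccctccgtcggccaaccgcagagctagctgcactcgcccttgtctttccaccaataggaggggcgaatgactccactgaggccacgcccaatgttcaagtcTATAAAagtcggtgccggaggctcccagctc
AEN: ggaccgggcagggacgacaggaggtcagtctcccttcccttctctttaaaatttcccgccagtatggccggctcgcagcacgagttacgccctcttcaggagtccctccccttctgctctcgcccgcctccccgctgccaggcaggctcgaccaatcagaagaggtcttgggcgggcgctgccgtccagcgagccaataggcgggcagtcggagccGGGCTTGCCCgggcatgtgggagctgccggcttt

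Windows of 300 bases, 250 before to 50 after the start, were found for 27 of the 33 members and searched on both strands. These 27 include BTG2, BBC3, FDXR and PMAIP1, which were not tested, while the shares set beside them cover tested genes only. GC boxes, bound by SP1-type factors, lay in 23 of the 27 (85.2%), against 67.5% of 10520 tested genes with a window; CDKN1A had 4 of them, of which 2 overlap each other. The CCAAT box (CCAAT) lay in 15 (55.6%, against 36.5%) and the TATA core in 3, BTG1, GADD45B and GDF15 (11.1%, against 6.16%). An exact p53 half-site lay in PLK2, FDXR and AEN (11.1%, against 5.42%), and the half-site of nuclear receptors (AGGTCA) in BTG2 and AEN (7.41%, against 10.4%). These matches describe letters in a window. The p53 sites of several members, CDKN1A among them, are known to lie outside so short a stretch.

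Among the growth arrest genes, CDKN1A, PLK3 and GADD45A rose in both knockdowns. CDKN1A encodes p21, the inhibitor of cyclin-dependent kinases through which p53 stops the cell cycle. Its signals were 1374, 1379 and 1526 in knockdown1, 1207, 1188 and 1184 in knockdown2, and 620.0, 575 and 777 in control. No knockdown array overlapped the controls, and all 3 knockdown1 arrays lay above the knockdown2 arrays. The rise was 1.13 in knockdown1 (SE 0.14, adjusted p = 1.89e-07) and 0.87 in knockdown2 (SE 0.14, adjusted p = 1.59e-05). The difference of 0.26 between the knockdowns did not pass (SE 0.14, adjusted p = 0.183), but did on the values as deposited (0.38, adjusted p = 3.95e-04).

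PLK3, a stress-activated kinase of the polo family, gave 113, 137 and 131 in knockdown1, 101, 102 and 119.8 in knockdown2, and 57.2, 38.3 and 51.5 in control. Every knockdown array lay above every control, while the knockdowns overlapped each other. It rose by 1.37 and 1.13 (SE 0.18 for both, adjusted p = 5.53e-07 and 1.51e-05), although a dimmer probe set gave -0.41 and -0.06, neither past the threshold. The mean of both probe sets was smaller and still passed (0.48 and 0.53, adjusted p = 0.0484 and 0.0329). GADD45A, a damage-inducible protein that acts on stress kinases and DNA repair, gave 1200.2, 1004 and 1349 in knockdown1, 1385, 1248 and 1189 in knockdown2, and 729, 532 and 651 in control. Again the knockdowns overlapped each other and neither overlapped the controls. The rises were 0.89 and 1.01 (SE 0.15 for both, adjusted p = 1.95e-05 and 5.22e-06).

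GADD45B, its paralog and a response gene of inflammatory and TGF-beta signals, went opposite ways. Its signals were 101, 91.3 and 118 in knockdown1, 228, 250.4 and 278 in knockdown2, and 159, 139 and 185 in control. The 3 groups did not overlap, with control in the middle. It fell in knockdown1 (-0.63, SE 0.16, adjusted p = 0.0027), rose in knockdown2 (0.65, SE 0.16, adjusted p = 0.0028) and was lower in knockdown1 than in knockdown2 by 1.28 on the log2 scale (SE 0.16, adjusted p = 4.79e-07). Its 2 other probe sets past the filter gave -0.41 and -0.47 in knockdown1, 0.63 and 0.63 in knockdown2, and -1.04 and -1.10 between the knockdowns.

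**Figure D2:**
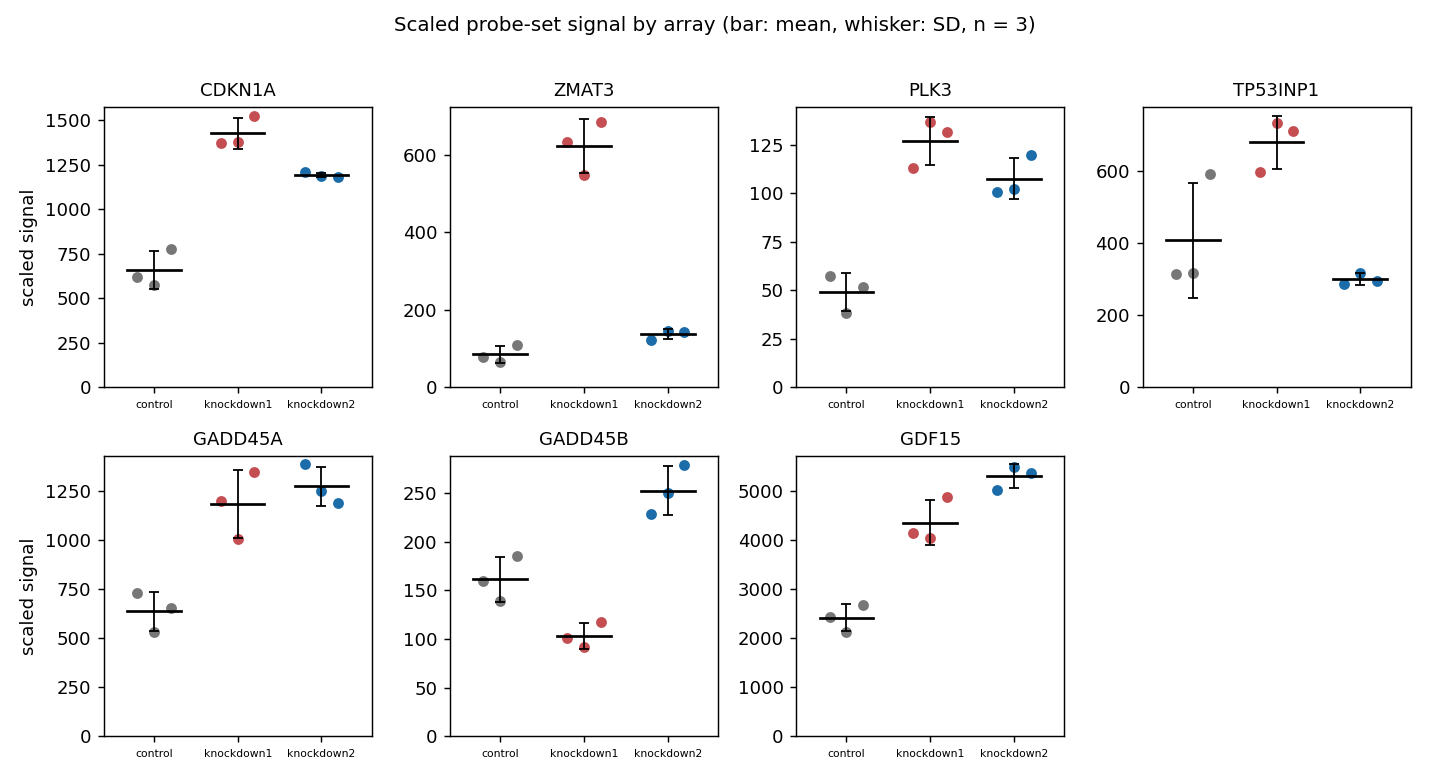
Scaled signal (y axis, from 0) of the brightest probe set of each member that changed at least 2-fold in some comparison with arrays that do not overlap. Points are arrays, bars are means and whiskers SD (n = 3); CDKN1A, PLK3, GADD45A and GDF15 are higher in both knockdowns than in control, ZMAT3 and TP53INP1 are highest in knockdown1, and GADD45B is lowest in knockdown1 and highest in knockdown2.

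BTG1, an antiproliferative gene, fell in knockdown1 from 371 ± 63.96 to 260 ± 13.0 (SD, n = 3; -0.50, SE 0.15, adjusted p = 0.011) and gave -0.34 (SE 0.15, adjusted p = 0.0998) in knockdown2, or -0.45 (adjusted p = 0.0194) without control replicate 2. By its brightest probe set on the scaled values, none of the remaining arrest genes passed in any comparison: the kinase gene PLK2 at 52.3 in control, SFN, which encodes 14-3-3 sigma, at 1659, and CCNG1, the cyclin G1 gene, at 2257. Their differences from control ran from -0.13 for CCNG1 in knockdown1 to 0.38 for SFN in knockdown2 (SE 0.15, adjusted p = 0.0578). PLK2 was higher in knockdown1 than in knockdown2 on the deposited values (0.44, adjusted p = 0.0441). A second SFN probe set, with nearly the same mean level (2022 in knockdown1, 2157 in knockdown2, 1534 in control), rose in both knockdowns (0.39 and 0.50, adjusted p = 0.0488 and 0.0156), and a dimmer one gave 0.35 and 0.39, neither past the threshold. By the brightest probe set SFN did pass in both knockdowns on the deposited values (0.33 and 0.35, adjusted p = 0.0055 and 0.0047), and in knockdown2 without knockdown1 replicate 3 (0.38, adjusted p = 0.0337). Without control replicate 3 this probe set passed in both knockdowns (0.52 and 0.63, adjusted p = 0.0048 and 0.0012).

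ZMAT3, a zinc-finger RNA-binding protein induced by p53, had the largest difference from control of any member. Its signals were 634, 549 and 686 in knockdown1, 122, 146 and 143 in knockdown2, and 78.2, 66.1 and 109 in control. The 3 groups did not overlap, and knockdown1 lay far above the others. The rise was 2.89 in knockdown1 (SE 0.17, adjusted p = 3.05e-13) and 0.72 in knockdown2 (SE 0.17, adjusted p = 0.0020), a difference of 2.17 between the knockdowns (SE 0.17, adjusted p = 1.05e-10). All 4 dimmer ZMAT3 probe sets rose in knockdown1, by 2.47 to 3.00, and gave 0.40 to 0.83 in knockdown2, where 2 of the 4 passed.

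TP53INP1, a p53 cofactor in stress and autophagy, was high in knockdown1 alone. Its signals were 597, 733 and 711 in knockdown1, 287, 318 and 295 in knockdown2, and 315, 318 and 593 in control. Control replicate 3 stood apart from the other 2 controls and just below the lowest knockdown1 array. The rise in knockdown1 was 0.79 (SE 0.18, adjusted p = 0.0011), and knockdown1 exceeded knockdown2 by 1.17 (SE 0.18, adjusted p = 1.29e-05). In knockdown2 it gave -0.38 (SE 0.18, adjusted p = 0.13), and -0.52 without control replicate 2 (adjusted p = 0.0405).

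Neither of the members that restrain p53, MDM2 and PPM1D, was called higher in either knockdown. MDM2, the ubiquitin ligase that degrades p53 and is itself a p53 target, fell in knockdown1, from 635 ± 151 in control to 366 ± 18.0 (SD, n = 3; -0.76, SE 0.16, adjusted p = 4.12e-04). In knockdown2 it was 477 ± 44.0 (-0.39, SE 0.16, adjusted p = 0.0752), and it passed there without control replicate 2 (-0.59, adjusted p = 0.0020) and on the deposited values (-0.42, adjusted p = 0.0056). Between the knockdowns it gave -0.38 (SE 0.16, adjusted p = 0.0829). That difference passed without control replicate 2 or 3 (adjusted p = 0.0209 and 0.0306). It also passed with only the 2 groups compared (adjusted p = 0.0123) and with a replicate block (adjusted p = 0.0285). Of its 6 dimmer probe sets past the filter, 3 also fell in knockdown1 (-0.70, -1.14 and -1.41), and the others gave -0.31, 0.57 and -0.05, none past the threshold. Between the knockdowns a dimmer probe set passed (-0.80, adjusted p = 0.0073), and the other dimmer ones gave -0.54 to 0.11, none past the threshold. PPM1D, the phosphatase WIP1 that switches the p53 response off, was 417 ± 11.2 in knockdown1, 568 ± 33.6 in knockdown2 and 525 ± 104 in control. It was lower in knockdown1 than in knockdown2 (-0.44, SE 0.15, adjusted p = 0.0263), with no call against control except without control replicate 2 (-0.39 in knockdown1, adjusted p = 0.0408). The call between the knockdowns ended in the fits that left out a knockdown array other than knockdown1 replicate 3 (adjusted p = 0.0632 to 0.129) and with the mean of its probe sets (-0.17, adjusted p = 0.512).

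**Figure D3:**
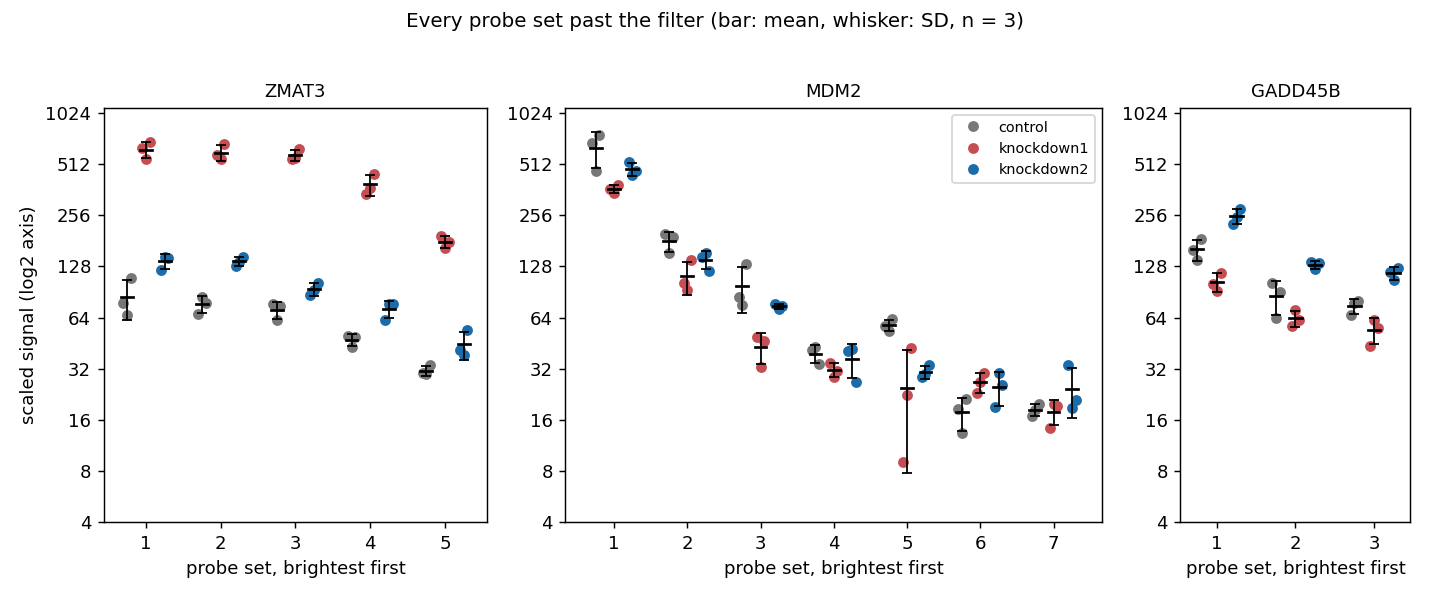
Scaled signal (y axis, log2 scale) of every probe set past the filter for ZMAT3, MDM2 and GADD45B, ordered by brightness, with points for arrays, bars for means and whiskers for SD (n = 3). All 5 ZMAT3 probe sets are highest in knockdown1 and all 3 GADD45B probe sets are highest in knockdown2, while the 4th, 6th and 7th MDM2 probe sets show no called difference.

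All 3 tested genes of metabolism and redox control rose in knockdown1, where 14.3% of all tested genes rose. SESN1, a sestrin that restrains mTORC1, went from 196 ± 26.7 in control to 342 ± 10.7 (SD, n = 3; 0.81, SE 0.15, adjusted p = 1.08e-04), and TP53I3, a quinone oxidoreductase also known as PIG3, from 226 ± 27.8 to 390 ± 54.3 (0.78, SE 0.15, adjusted p = 1.74e-04). Neither was called in knockdown2 (0.14 and 0.04, SE 0.15 for both), and both were higher in knockdown1 than in knockdown2 (0.67 and 0.74, adjusted p = 0.0013 and 4.56e-04). TIGAR, a phosphatase that slows glycolysis, rose in both, from 552 ± 83.5 to 1049 ± 101 in knockdown1 (0.93, SE 0.14, adjusted p = 6.75e-06) and 830 ± 26.3 in knockdown2 (0.60, SE 0.14, adjusted p = 0.0019). The knockdowns differed by 0.33 (SE 0.14, adjusted p = 0.0842), past the threshold without control replicate 2 or 3 (adjusted p = 0.0358 and 0.0278). That difference depended on the scaling. It passed on the deposited values (0.45, adjusted p = 2.24e-04) and after quantile normalization (0.48, adjusted p = 1.32e-04).

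Of the 4 tested genes of DNA repair and nucleotide supply, all 4 rose in knockdown2 and 1, POLH, rose in knockdown1. The shares of all tested genes that rose were 13.7% in knockdown2 and 14.3% in knockdown1. XPC and DDB2, which recognise damage in nucleotide excision repair, were 101 ± 16.3 and 123 ± 13.3 in control, 162 ± 17.1 and 201 ± 25.5 in knockdown2, and 106 ± 13.0 and 147 ± 22.5 in knockdown1 (SD, n = 3). Their rises in knockdown2 were 0.68 and 0.70 (adjusted p = 0.0024 and 0.0014), against differences of 0.08 and 0.25 in knockdown1 that did not pass. DDB2 did pass in knockdown1 on the deposited values (0.34, adjusted p = 0.0268) and after quantile normalization (0.33, adjusted p = 0.0341). RRM2B, the p53-inducible subunit of ribonucleotide reductase, rose by 0.57 in knockdown2 (SE 0.15, adjusted p = 0.0055) and gave 0.06 in knockdown1. Each of the 3 was lower in knockdown1 than in knockdown2 (-0.60, -0.45 and -0.51; adjusted p = 0.0071, 0.0386 and 0.0135). These differences between the knockdowns were less firm: that of DDB2 ended without knockdown1 replicate 1 or 2 or knockdown2 replicate 1 or 2 (adjusted p = 0.0813 to 0.206), that of RRM2B without replicate 2 of either knockdown (adjusted p = 0.0603 and 0.0864), and that of XPC without knockdown2 replicate 3 (adjusted p = 0.0532).

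POLH, the translesion polymerase eta, rose in both knockdowns by its brightest probe set, by 0.97 and 0.59 (SE 0.19 for both, adjusted p = 2.34e-04 and 0.0224). The difference of 0.38 between the knockdowns did not pass (adjusted p = 0.157), but did on the deposited values (0.50, adjusted p = 0.0244). The mean over its 5 probe sets did not pass (0.36 and 0.37, adjusted p = 0.232 and 0.243). The knockdown2 call also ended without knockdown2 replicate 1 or 2 or control replicate 1 or 2 (adjusted p = 0.054 to 0.114).

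Among the genes that carry out apoptosis, 1 of 3 tested death receptors rose in each knockdown. Of 5 tested genes that act inside the cell, 2 rose in knockdown1 and 0 in knockdown2. Across all tested genes 14.3% rose in knockdown1 and 13.7% in knockdown2, and counts this small cannot be told from those shares. FAS, the death receptor CD95, was at 309 ± 38.9 in knockdown1, 325 ± 13.4 in knockdown2 and 235 ± 29.3 in control, and rose in both (SD, n = 3; 0.39 and 0.47, SE 0.15, adjusted p = 0.0459 and 0.0193). The 3 other FAS probe sets past the filter gave 0.42 to 0.77, and 5 of these 6 differences passed. The knockdown1 call held only without knockdown1 replicate 1 or control replicate 3 among the fits that left out an array (adjusted p up to 0.186 in the others), and the knockdown2 call ended without any 1 of the knockdown2 arrays or control replicate 1 (adjusted p = 0.0522 to 0.109). TNFRSF10B, the TRAIL receptor DR5, was not called, at 1411 ± 87.7 in knockdown1, 1688 ± 20.05 in knockdown2 and 1593 ± 271 in control. EDA2R, a receptor of the same family, was near the common median in every group (15.7 to 17.7).

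Inside the cell, AEN, a nuclease of apoptotic cells, and SPATA18, which acts in mitochondrial quality control, rose in knockdown1 (0.56 and 0.59, SE 0.18 for both, adjusted p = 0.0155 and 0.01) and gave 0.16 and 0.17 in knockdown2. The AEN call ended without knockdown1 replicate 3 or control replicate 1 (adjusted p = 0.131 and 0.159). The SPATA18 call ended without control replicate 2 (adjusted p = 0.0519), a fit in which SPATA18 was higher in knockdown1 than in knockdown2 (0.43, adjusted p = 0.0419). On the deposited values AEN and SPATA18 were both higher in knockdown1 than in knockdown2 (0.51 and 0.54, adjusted p = 0.0317 and 0.0082). With the common median neither difference passed (adjusted p = 0.107 and 0.0779). BAX, the pore-forming effector of mitochondrial apoptosis, gave 0.38 in knockdown1 (SE 0.18, adjusted p = 0.106), and passed when either knockdown1 replicate 3 (0.55, adjusted p = 0.0349) or control replicate 3 was left out (0.48, adjusted p = 0.0466). PHLDA3, which restrains AKT, and TRIAP1, a survival factor, were not called in any comparison (-0.25 to 0.02 against control).

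GDF15, a secreted stress hormone of the TGF-beta family, rose in both knockdowns. Its signals were 4144, 4054 and 4896 in knockdown1, 5035, 5508 and 5381 in knockdown2, and 2437, 2137 and 2688 in control. The 3 groups did not overlap and knockdown2 was highest. The rises were 0.85 in knockdown1 and 1.14 in knockdown2 (SE 0.13 for both, adjusted p = 3.98e-06 and 5.80e-08), and the knockdowns differed by -0.29 (SE 0.13, adjusted p = 0.0938); that difference passed when knockdown1 replicate 3 or control replicate 2 was left out (-0.37 and -0.29, adjusted p = 0.020 and 0.0496). The probe set belongs to a type that can bind related transcripts. Its 2 dimmer probe sets gave 0.70 and 1.27 in knockdown1 and 0.97 and 1.59 in knockdown2, of which the pair 1.27 and 1.59 passed.

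The genes around p53 that were not members were read from lists of textbook membership, chosen, like the members, with earlier results of these data known. Their counts stand beside the shares of all tested genes, 14.3% higher and 19.0% lower in knockdown1 and 13.7% and 13.9% in knockdown2. Of 22 tested regulators of p53, 3 rose and 6 fell in knockdown1, and 4 rose and 3 fell in knockdown2, shares near those of all genes for the rises in knockdown1 and for the falls in knockdown2. CDKN2A, whose locus encodes p16 and the MDM2 inhibitor ARF, rose in both (0.91 and 1.05, SE 0.19 for both). USP7, the deubiquitinase of MDM2 and p53, fell in both (-1.80 and -0.83, SE 0.14), and CHEK1, the checkpoint kinase, fell in knockdown1 (-2.43, SE 0.17) with -0.15 in knockdown2. MDM4, the other inhibitor of p53 related to MDM2, was not called (0.05 and -0.12, SE 0.17). Of 35 further p53 targets, 14 rose and 4 fell in knockdown1 (median 0.28), and 11 rose and 5 fell in knockdown2 (median 0.26). THBS1, the matrix protein thrombospondin 1, rose most in both (2.12 and 2.24, SE 0.20), from a mean signal of 25.6 in control. NINJ1, a membrane rupture protein, fell in both (-1.19 and -1.70, SE 0.16 for both). KITLG, the KIT ligand, rose in knockdown1 (1.26, SE 0.15) and gave -0.03 in knockdown2. For these further targets only the brightest probe set was read.

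Of 26 tested genes of the apoptosis machinery, 8 rose and 3 fell in knockdown1, and 6 rose and 1 fell in knockdown2, where the share called in either direction was close to the 27.6% of all genes. BIK, a BH3-only killer protein, rose in both (1.74 and 1.10, SE 0.19). By its brightest probe set the survival gene MCL1 rose in knockdown2 (0.98, SE 0.13) with 0.22 in knockdown1. A dimmer MCL1 probe set passed in both knockdowns, with 0.72 in knockdown1 (limma adjusted p = 0.00102). The other dimmer ones gave 0.01 to 0.35 in knockdown1, none past the threshold. The rise of MCL1 was thus not limited to knockdown2 by every probe set. CYCS, the cytochrome c gene, fell in knockdown1 (-0.98, SE 0.14) and rose in knockdown2 (0.74, SE 0.14). Cell cycle genes that p53 represses through p21 and the DREAM complex differed between the knockdowns. All 25 tested fell in knockdown1 (median -2.13, range -3.48 to -1.46), while 11 fell and 1 rose in knockdown2 (median -0.42), and all 25 were lower in knockdown1 than in knockdown2 (median -1.65). CDKN1A rose in both, by 1.13 and 0.87. Whether the fall of the cell cycle genes bears on the member genes was not tested.

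**Figure D4:**
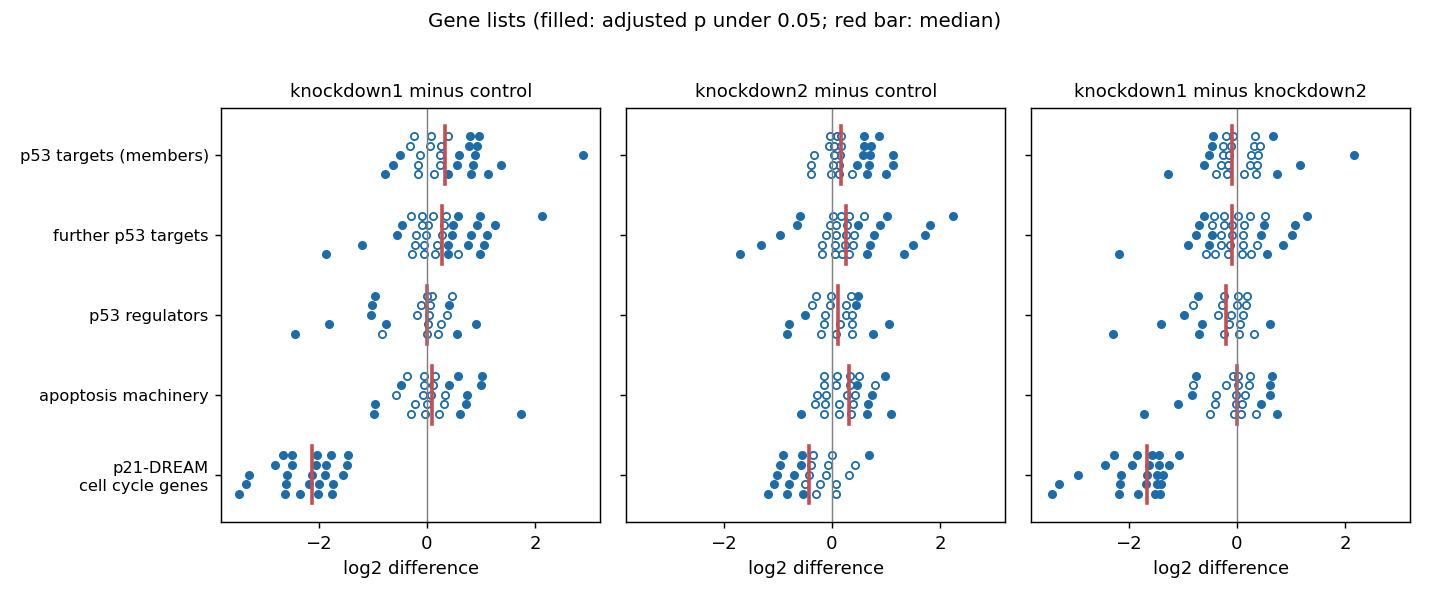
Log2 difference (x axis) of each tested gene in 5 lists (rows) for the 3 comparisons, with filled points for adjusted p under 0.05 and a red bar at each list's median. The p21-DREAM cell cycle genes all lie left of 0 in knockdown1 (median -2.13) and nearer 0 in knockdown2 (median -0.42), while the medians of the p53 targets are 0.33 and 0.17.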

How the data were processed

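The authors deposited 1 linear intensity for each probe set, made with MAS5 per the submitters' processing notes, without a version in the sources used here; each array's mean after trimming 2% at each end is 100.0. Arrays were rescaled here (factors 0.898 to 1.15) to a shared median of 14.1, and values were taken as log2(signal + 1.41), which understates changes of dim genes. Probe sets were named from a platform annotation; those with 1 gene symbol were kept if above their array's median on at least 3 of 9 arrays, and the brightest by mean log2 value stood for a gene. All 9 arrays entered 1 fit of 3 groups by limma 3.58.1 under R 4.3.3, using empirical Bayes moderation that follows the mean-variance trend. Tests were two-sided and p-values were adjusted by Benjamini-Hochberg across 13056 genes; values for dimmer probe sets come from a like fit over all probe sets with 1 symbol past the filter. The fit was tested on simulated data. The members and lists were chosen with earlier results of these data known. Every member is accounted for; members changed at least 2-fold, called and with arrays that do not overlap are given array by array, and from each other list up to 2 called genes with the largest rise and fall in a comparison could be named, with MDM4 and HNF4G named in any case. Alternatives were no scaling, quantile normalization, 2 other pseudocounts, 2 other filters, the mean of probe sets, no variance trend, only the 2 groups compared, a replicate block and leaving out each array. A value that was not called and stayed so was not counted as a reversal. Promoter windows came from RefSeq (GRCh38.p14).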

Additional observations from a re-analysis of the deposited data

Results flagged for a closer look

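GADD45B was flagged because its effects against control were called in opposite directions in the 2 knockdowns and the direct difference was called too. The direct test was part of the rule for flagging, so its passing is not separate support. The difference between knockdown1 and knockdown2 was -1.28 in log2 units (SE 0.16, adjusted p from limma = 4.79e-07), and it had the same sign and passed in 19 of 19 alternative fits. It was the only one of the 28 tested members with this pattern. Both effects share the control arrays, while the direct difference does not use them as a group.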

How the results depend on the processing

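Of 84 member differences (28 genes in 3 comparisons), 37 were called. No called direction was reversed in the 19 alternative fits; 27 calls held in all of them and 10 were lost in at least 1, while 16 differences that were not called passed in at least 1. The members called between the knockdowns went from 9 to 16 on the values as deposited and to 15 after quantile normalization. The deposited arrays already shared a trimmed mean. For CDKN1A the SE of this difference was 0.14 with the common median, 0.065 on the deposited values and 0.060 after quantile normalization. Some differences that did not pass thus depend on the choice of scaling. Against the common median, with the deposited values the all-gene median between the knockdowns went from -0.03 to 0.08, and the split of all called genes from 1368 higher and 2105 lower to 2803 and 2104; for knockdown1 against control it went from 1866 and 2485 to 3105 and 2628. In knockdown2 the members' split went from 12 and 0 to 13 and 3 on the deposited values, and to 11 and 3 without control replicate 2; MDM2, TP53INP1 and BTG1 were the 3. Leaving out each array gave 14 to 18 members for knockdown1, 10 to 14 for knockdown2 and 6 to 13 between them. Whether the replicate numbers pair the arrays could not be told from so few arrays. Of 9 same-numbered pairs 1 deviated together at over 0.1 (0.134), where pairs with different numbers reached at most 0.085. The best match carried the same number in 9 of 18 cases. With a replicate block 16, 14 and 13 members were called.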
